A study of Bos taurus and Bos grunniens x Bos taurus and Bos grunniens with 18 samples.

Results

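The respiratory chain genes described here are the nuclear-encoded subunits of the 5 complexes of oxidative phosphorylation, taken from the mRNA table of testis by gene symbol. Members were symbols beginning with NDUFA, NDUFB, NDUFC, NDUFS, NDUFV, UQCR, COX4, COX5, COX6, COX7, COX8 or ATP5, together with SDHA, SDHB, SDHC and SDHD, and symbols beginning with NDUFAF or ATP5S were left out. The rule used names and no measured value, and it found 81 of 19994 genes. By complex they were 37 genes of complex I, 4 of complex II, 8 of complex III, 14 of complex IV and 18 of complex V. One of the 18, ATP5IF1, encodes an inhibitor of complex V and not a subunit. COX6B1, COX6C, COX7B2, COX7C, COX8A and COX8C are not analysed here. Gene positions are not given here, because the annotation at hand is of another build than the one named for the files.

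Electrons from NADH enter the chain at complex I and those from succinate at complex II. Complex III passes them through cytochrome c to complex IV, which reduces oxygen, and complex V makes ATP from the proton gradient that complexes I, III and IV build up. In the mammalian testis, spermatocytes and spermatids rely strongly on mitochondria, and germ cells carry their own versions of some components, such as a testis cytochrome c and the complex IV subunit COX6B2, beside the versions of other tissues.

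Testes came from cattle (Bos taurus), yak and cattle-yak, the hybrid of both, which is titled Dzo in the labels, with 3 animals and 3 libraries in each group. All 9 animals were 4 years old, came from a single cooperative and were chosen for castration, and no treatment or genetic change is labelled. Cattle-yak males are sterile, and the question behind the series is how hybrid testis differs from that of its parents. Which species was the dam is not labelled.

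Values are FPKM, sequenced fragments relative to the length of the transcript and to the mapped total of the library, which the authors computed and which were summed here over the transcripts of a gene. Read depth is unknown, so no counting error can be given, and summed FPKM per library lay between 408528 and 481551. A gene was tested where at least 3 libraries reached 1 FPKM, which left 14091 genes and 80 of the 81 members. COX6A2, the heart and muscle form of subunit 6A, was at 0 in all 3 cattle-yak libraries and at 0 to 0.172 FPKM in the parents, and it was not tested. Fold changes are differences of log2(FPKM + 1) with their SE from limma over all 9 libraries, which understates changes of low genes. "Higher", "lower", "rose" and "fell" are used for an adjusted p under 0.05 over all genes tested, and mean ± SD is over n = 3 libraries.

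The tissue carried the marker genes of testis in each group, with a different balance in cattle-yak. The 8 spermatid markers summed to 15318 to 26714 FPKM in cattle libraries, 20108 to 22149 in yak and 14.3 to 86.1 in cattle-yak, and all 8 fell against each parent. The 8 spermatocyte markers summed to 421 to 676 FPKM in cattle-yak, 1721 to 1917 in cattle and 1697 to 2050 in yak. Against each parent 4 fell (CLGN, LDHC, PIWIL1 and OVOL1) and 1 rose (SYCP3, by 1.61 and 1.90). SYCP1, HORMAD1 and SPO11 were not called against either parent. Most of the sum in the parents came from CLGN, LDHC and PIWIL1, at means of 993, 423 and 196 FPKM in cattle. With median-ratio scaling 1 spermatocyte marker rose and 6 fell against cattle, and the counts against yak were 1 and 4. The 7 spermatogonia, 7 Sertoli cell, 7 Leydig cell and 7 smooth muscle and stroma markers measured all rose in cattle-yak against each parent, the Sertoli list from at most 705 FPKM in a parent library to at least 1940. With median-ratio scaling none of these fell, and against cattle 5, 7, 6 and 5 of them rose in that order. Of 7 macrophage markers 3 rose and 1 fell against cattle, and the counts against yak were 6 and 1. Of 5 endothelium markers 4 rose and 1 fell against each parent. Of 7 striated muscle markers only TTN was tested and it fell, and the other 6 had group means under 1 FPKM. In bulk tissue, fewer cells of a type and less RNA per cell cannot be told apart. Every result below on cattle-yak stands beside these shifts, and their part in it was not tested.

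Cattle-yak testis did not show 1 direction for the respiratory chain: genes of the same complex rose and fell side by side. Genes at large also went in both directions. Against cattle 37 members were higher, 24 lower and 19 not called, where 54.4% of all genes tested were higher and 30% lower, 84.4% in either direction. Against yak 29 were higher, 32 lower and 19 not called, where 55.3% of all genes were higher and 30.7% lower, 86% in either direction. The median log2 fold change of the members was 0.22 against cattle and −0.025 against yak, beside 0.50 and 0.54 for all genes tested. All 3 cattle-yak libraries lay above all 6 parent libraries for 28 of the 81 members and below them for 21, where 51.7% of all genes tested lay above and 27.6% below. The comparisons share the cattle-yak libraries.

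The split depended on scaling. With median-ratio scaling, which gives libraries equal typical genes, the median of all genes moved by −0.48 against cattle and by −0.54 against yak. On that scale 21 members were higher and 43 lower against cattle, where 39.4% of all genes were higher and 40.5% lower. Against yak 15 were higher and 49 lower, where 40.4% of all genes were higher and 42% lower, and the members' medians were −0.33 and −0.63. Changes smaller than about 0.5 on the log2 scale are therefore below the shift of a typical gene. That scaling turned the direction of 19 members against cattle and of 15 against yak, of which 8 and 5 had been called as deposited. NDUFA13, NDUFS5 and NDUFAB1 against cattle and ATP5PD against yak were called higher as deposited and lower with median-ratio scaling. These 4 were picked out after their values were seen.

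**Figure D1:**
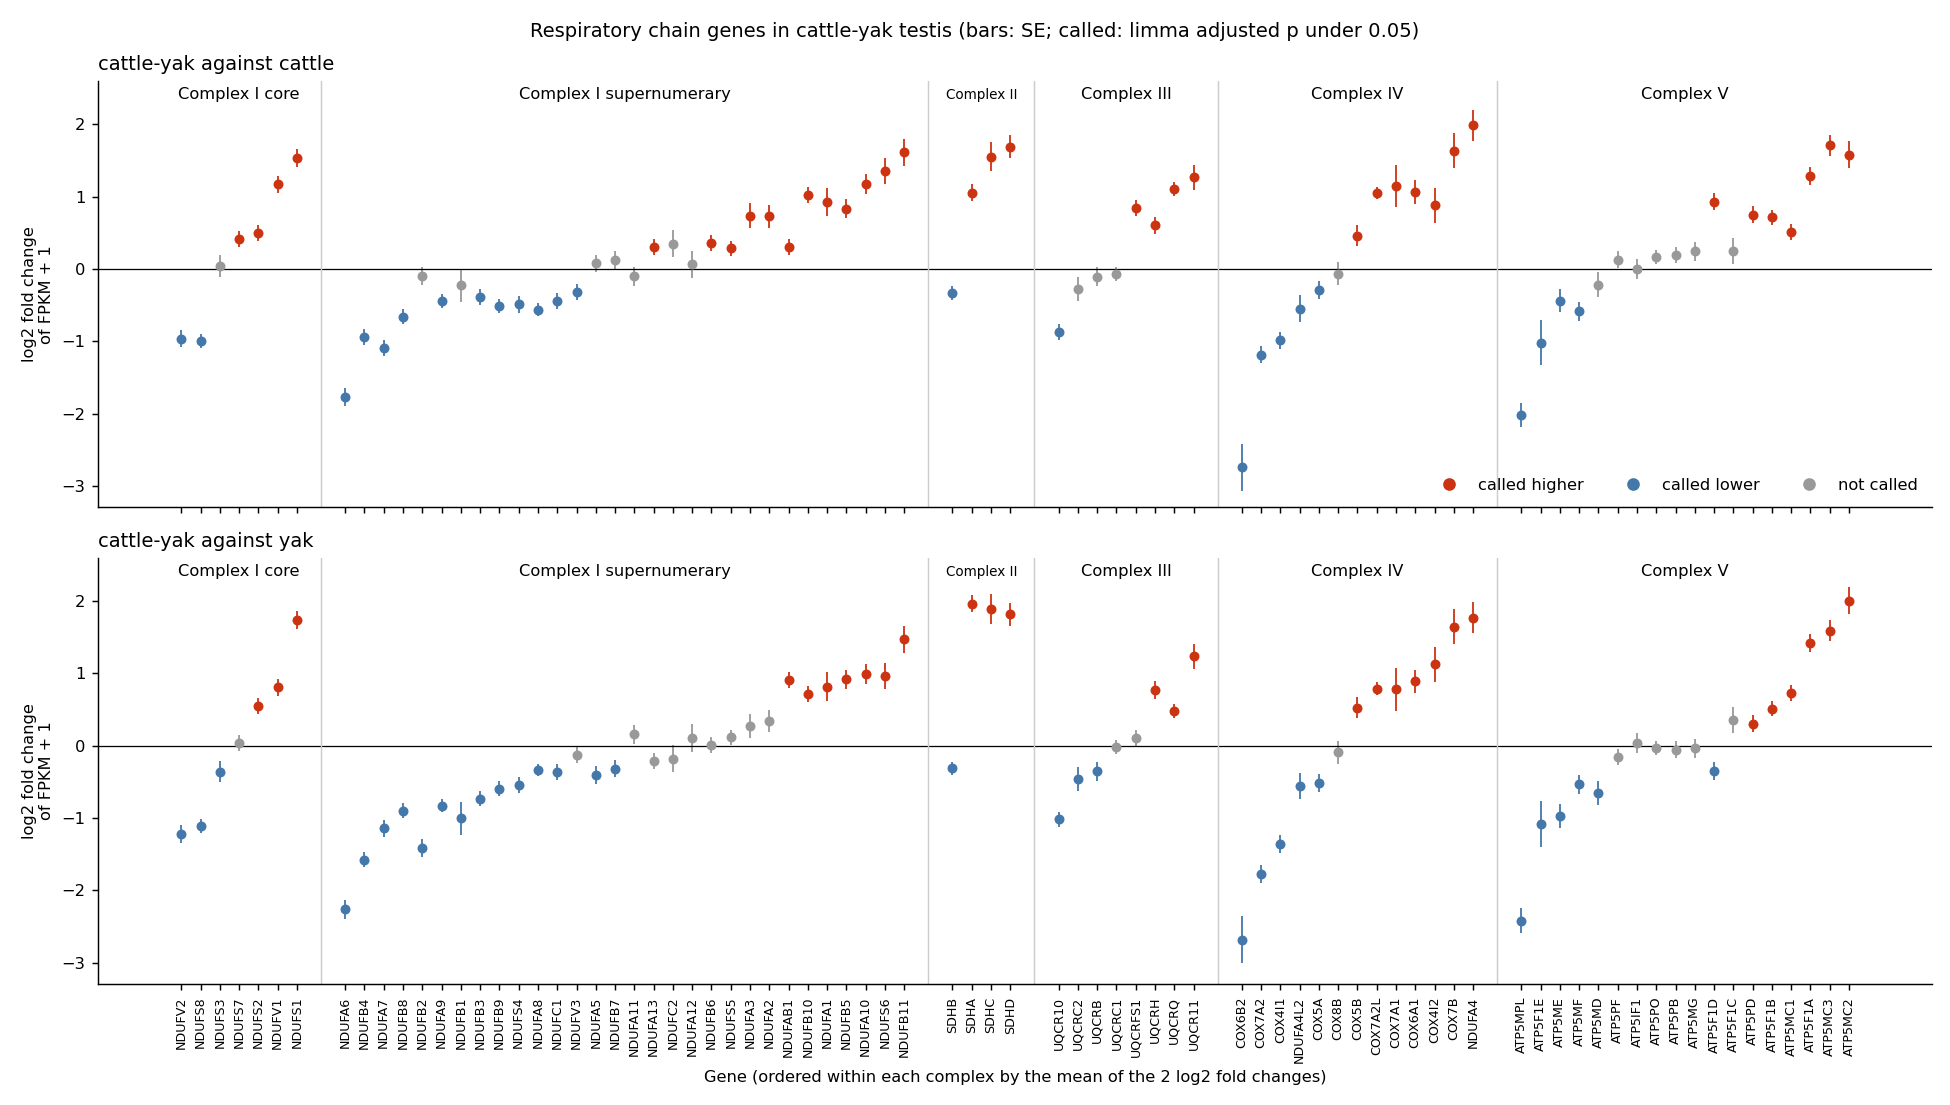
Log2 fold change of FPKM + 1 (y axis, bars SE) of the 80 tested respiratory chain genes (x axis, by complex) in cattle-yak against cattle (top) and against yak (bottom), red for called higher, blue for called lower and grey for not called. Every complex has genes on both sides of 0, from −2.74 for COX6B2 to 1.99 for NDUFA4 against cattle.

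The spread of levels among subunits was narrower in the hybrid. The SD of log2(FPKM + 1) over the 80 tested members was 1.57 to 1.62 in cattle libraries, 1.62 to 1.81 in yak and 1.37 to 1.45 in cattle-yak, and the ranges of hybrid and parents did not overlap. Over all genes tested the SD was 1.93 to 1.94 in cattle, 1.96 to 2.08 in yak and 1.85 to 1.94 in cattle-yak. The interquartile range of the members was 1.97 to 2.03 in cattle, 2.02 to 2.24 in yak and 1.27 to 1.31 in cattle-yak. As deposited, members that were abundant in the parents mostly fell and those that were scarce mostly rose. Of the 20 members with the highest FPKM in yak, 11 were lower and 3 higher in cattle-yak against cattle, and of the 20 with the lowest, 2 were lower and 15 higher. Of the 20 highest in cattle, 13 were lower and 3 higher against yak, and of the 20 lowest, 3 were lower and 13 higher. Across the 80 members, which are genes of the same libraries, the level in yak and the change against cattle had r = −0.48 and rho = −0.59. Across all 14091 genes the same values were −0.42 and −0.38, so that the negative sign was shared with genes at large.

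Complex I takes electrons from NADH. Its 7 measured core subunits carry flavin and iron-sulfur clusters and are the parts conserved from bacteria. Against cattle 4 core subunits rose and 2 fell, and against yak 3 rose and 3 fell. NDUFV1 and NDUFV2, which together form the NADH-oxidising tip of the complex, moved apart.

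NDUFS1 (ENSBTAG00000021976), the largest iron-sulfur subunit, was at 28.4, 26.0 and 26.1 FPKM in the cattle libraries, 77.2, 76.3 and 86.6 in cattle-yak and 19.6, 23.5 and 27.3 in yak. Every cattle-yak library lay above every parent library. Against cattle the log2 fold change was 1.54 ± 0.12 (SE; limma, adjusted p = 1.55e-06), and against yak it was 1.74 ± 0.12 (adjusted p = 6.13e-07). NDUFV1 (ENSBTAG00000021776), which binds NADH and flavin, rose to 66.0 ± 6.06 FPKM from 28.7 ± 1.39 in cattle and 37.4 ± 4.63 in yak, by 1.17 ± 0.12 and 0.81 ± 0.12 on the log2 scale. Its partner NDUFV2 (ENSBTAG00000004871) was at 264, 305 and 346 FPKM in cattle, 143, 161 and 162 in cattle-yak and 375, 343 and 374 in yak. Cattle-yak libraries were low and did not overlap either parent, with log2 fold changes of −0.96 ± 0.12 (limma, adjusted p = 3.43e-05) and −1.22 ± 0.12 (adjusted p = 5.45e-06). NDUFS8 (ENSBTAG00000012072), an iron-sulfur subunit of the arm that leads to the quinone site, fell to 35.4 ± 1.80 FPKM from 71.8 ± 5.78 in cattle and 77.8 ± 3.41 in yak. Its log2 fold changes were −0.996 ± 0.096 and −1.11 ± 0.096. With median-ratio scaling NDUFV1 was not called against yak (limma, adjusted p = 0.112), and the other calls of these 4 genes stood.

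Ratios within a library do not change when the library is scaled by a single factor, though they can under quantile normalisation. NDUFV2 was 9.36 to 12.5 times NDUFV1 in the cattle libraries, 8.49 to 11.7 times in yak and 2.27 to 2.41 times in cattle-yak. NDUFS8 was 2.31 to 2.96 times NDUFS1 in cattle, 2.89 to 4.10 times in yak and 0.433 to 0.451 times in cattle-yak. In both pairs the hybrid range lay below and apart from the ranges of the parents. These pairs, like those given for the other complexes, were chosen after the values were seen and are not tested.

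The 30 supernumerary subunits surround the core and serve in assembly and stability. Against cattle 12 rose and 11 fell, and against yak 7 rose and 14 fell. With median-ratio scaling 5 rose and 20 fell against cattle, while against yak the counts were 4 and 21. All genes tested stood at 54.4% higher and 30% lower against cattle as deposited, and 39.4% and 40.5% with that scaling. Against yak they stood at 55.3% and 30.7%, and 40.4% and 42%. The supernumerary subunits held the member that fell furthest in complex I.

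NDUFA6 (ENSBTAG00000009509), a protein of the LYR family in the matrix arm, was at 406, 454 and 437 FPKM in cattle, 125, 145 and 110.3 in cattle-yak and 669, 559.9 and 602 in yak. All cattle-yak libraries lay far below the parents, with log2 fold changes of −1.77 ± 0.13 compared with cattle (limma, adjusted p = 8.75e-07) and −2.26 ± 0.13 with yak (adjusted p = 1.44e-07). NDUFB4 (ENSBTAG00000015892), of the membrane arm, fell to 84.2 ± 6.41 FPKM from 162 ± 9.49 in cattle and 253 ± 17.8 in yak, with log2 fold changes of −0.94 ± 0.10 and −1.58 ± 0.10. In the other direction, NDUFB11 (ENSBTAG00000047278), also of the membrane arm, was at 14.9, 18.0 and 15.5 FPKM in cattle, 44.4, 52.3 and 57.7 in cattle-yak and 12.6, 20.4 and 21.9 in yak. Its cattle-yak libraries all lay above every parent library, and the log2 fold changes were 1.61 ± 0.19 (limma, adjusted p = 1.88e-05) and 1.47 ± 0.19 (adjusted p = 3.19e-05). NDUFS6 (ENSBTAG00000009914), a zinc-binding subunit added late in assembly, rose to 63.4 ± 8.96 FPKM from 24.5 ± 5.68 in cattle and 32.0 ± 3.67 in yak. Against yak that call was lost with median-ratio scaling (limma, adjusted p = 0.0704). NDUFAB1 (ENSBTAG00000006391), the mitochondrial acyl carrier protein to which NDUFA6 binds, was at 69.1, 79.9 and 66.9 FPKM in cattle, 81.4, 90.7 and 94.1 in cattle-yak and 45.8, 42.9 and 52.0 in yak. Cattle-yak lay above both parents, with log2 fold changes of 0.30 ± 0.11 (limma, adjusted p = 0.0285) and 0.91 ± 0.11 (adjusted p = 2.36e-05). Against cattle its direction turned with median-ratio scaling to −0.26 (limma, adjusted p = 0.0462), and the call ended without cattle replicate 1 or 3 or cattle-yak replicate 2 or 3.

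Complex II oxidises succinate and is at the same time an enzyme of the citric acid cycle. It is made wholly of nuclear-encoded subunits. SDHA is the flavoprotein, SDHB the iron-sulfur subunit, and SDHC and SDHD anchor both in the inner membrane. In cattle-yak the flavoprotein and both anchors rose while SDHB fell. The summed FPKM of the 4 genes as deposited was 197 to 212 in cattle libraries, 162 to 181 in yak and 291 to 366 in cattle-yak, without overlap. That sum depends on scaling and was not computed with median-ratio scaling, where 3 of the genes rose and 1 fell against each parent.

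SDHA (ENSBTAG00000046019) was at 47.2, 51.1 and 49.4 FPKM in cattle, 97.8, 97.0 and 116 in cattle-yak and 22.2, 27.6 and 27.9 in yak. The 3 groups did not overlap, with cattle-yak highest and yak lowest. The log2 fold change of cattle-yak, compared with each parent, was 1.06 ± 0.12 with cattle (limma, adjusted p = 1.26e-05) and 1.96 ± 0.12 with yak (adjusted p = 1.93e-07). SDHC (ENSBTAG00000015853) rose to 63.4 ± 15.2 FPKM from 20.5 ± 0.777 in cattle and 16.3 ± 4.26 in yak, by 1.56 ± 0.21 and 1.90 ± 0.21. SDHD (ENSBTAG00000016266) rose from 21.3 ± 2.84 and 19.5 ± 3.86 FPKM to 70.7 ± 6.90, by 1.69 ± 0.16 and 1.82 ± 0.16. SDHB (ENSBTAG00000008314) was at 116, 108 and 118 FPKM in cattle, 83.8, 89.5 and 98.0 in cattle-yak and 113, 111 and 113 in yak. All cattle-yak libraries lay below the parents by a small margin, and SDHB changed by −0.33 ± 0.094 (limma, adjusted p = 0.00683) and −0.31 ± 0.094 (adjusted p = 0.00938) on the log2 scale. The size depended on scaling: with median-ratio scaling the changes of SDHB were −0.89 and −0.94 (limma, adjusted p = 1.42e-05 and 8.48e-06). With quantile normalisation SDHB was not called against cattle (limma, adjusted p = 0.376) and turned to 0.015 against yak (adjusted p = 0.873). With every library scaled to the same summed FPKM it was not called against yak (adjusted p = 0.0835).

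Within a library, SDHB was 2.12 to 2.46 times SDHA in cattle libraries and 4.03 to 5.09 times in yak. In cattle-yak it was 0.842 to 0.922 times, so that SDHB was the more abundant of the pair in each parent library and the less abundant in each hybrid library.

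**Figure D2:**
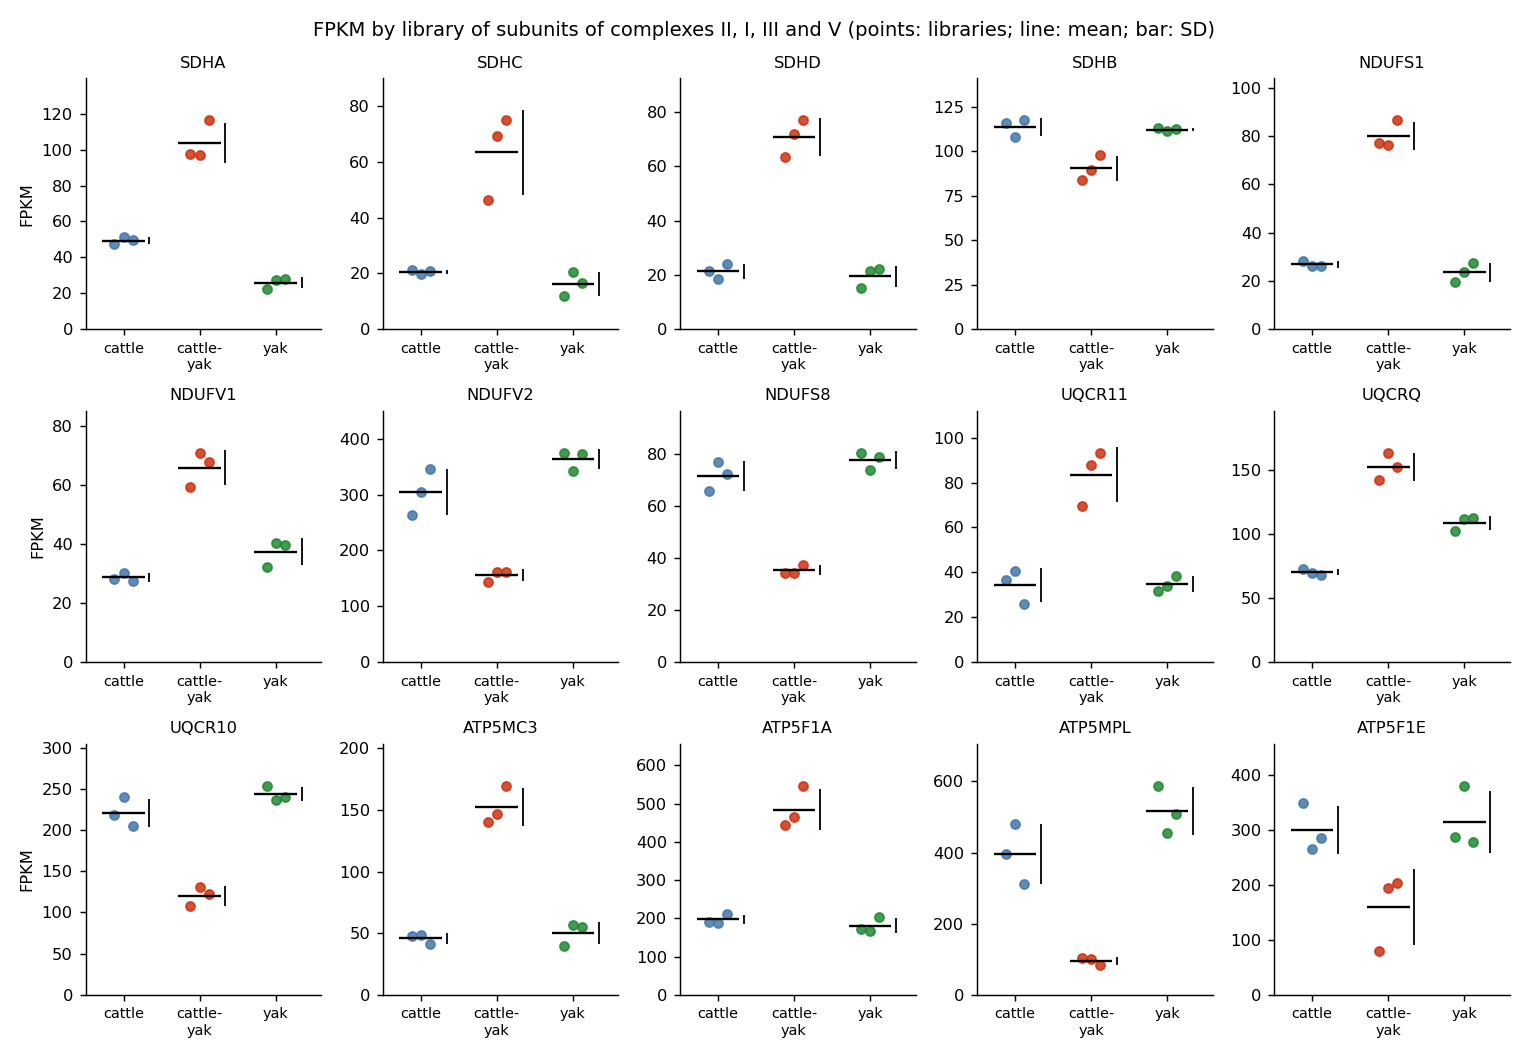
FPKM (y axes, each from 0) of 15 subunits of complexes I, II, III and V in the 9 libraries by group (x axes), with points for libraries, a line for the mean and a bar for the SD. SDHA, SDHC and SDHD stand high in cattle-yak while SDHB stands low, and the same split recurs within complexes I, III and V.

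Complex III moves electrons from quinol to cytochrome c. Of its 8 members 4 rose, 1 fell and 3 were not called against cattle, and 3 rose, 3 fell and 2 were not called against yak. With median-ratio scaling 3 rose and 4 fell against cattle, and the counts against yak were 1 and 5. All genes tested stood at 54.4% higher and 30% lower against cattle as deposited, and 39.4% and 40.5% with that scaling. Against yak they stood at 55.3% and 30.7%, and 40.4% and 42%. The core proteins UQCRC1 and UQCRC2 had log2 fold changes of −0.071 ± 0.10 and −0.28 ± 0.17 against cattle, neither called (limma, adjusted p = 0.521 and 0.149), and with median-ratio scaling they changed by −0.63 and −0.84 (adjusted p = 0.000155 and 0.000717). With quantile normalisation UQCRC1 turned to 0.090 (limma, adjusted p = 0.346).

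UQCR11 (ENSBTAG00000008692), a small accessory subunit, was at 36.4, 40.8 and 26.0 FPKM in cattle, 69.5, 87.8 and 93.2 in cattle-yak and 31.7, 33.98 and 38.5 in yak. Cattle-yak lay above both parents without overlap, with log2 fold changes of 1.27 ± 0.17 (limma, adjusted p = 4.88e-05) and 1.24 ± 0.17 (adjusted p = 5.34e-05). UQCR10 (ENSBTAG00000000913), another small subunit that lies by the catalytic subunits, was at 218, 239 and 205 FPKM in cattle, 107, 130.4 and 122 in cattle-yak and 254, 237 and 240.0 in yak. Here the cattle-yak libraries were all below the parents, and the log2 fold changes were −0.88 ± 0.11 (limma, adjusted p = 2.98e-05) and −1.02 ± 0.11 (adjusted p = 8.7e-06). UQCR10 was 5.87 to 7.87 times UQCR11 in cattle libraries, 6.23 to 7.996 times in yak and 1.31 to 1.54 times in cattle-yak. UQCRQ (ENSBTAG00000009479), which contacts cytochrome b, rose to 152 ± 10.7 FPKM from 70.2 ± 2.57 in cattle and 109 ± 5.44 in yak. Against yak its fold change of 0.48 ± 0.095 (limma, adjusted p = 0.000659) turned to −0.15 with median-ratio scaling (adjusted p = 0.159). UQCRC2 (ENSBTAG00000021651) was at 91.5 ± 2.43 FPKM in cattle-yak beside 114 ± 33.3 in cattle and 126 ± 3.17 in yak. Its call against yak (−0.46 ± 0.17; limma, adjusted p = 0.026) was lost without any 1 of cattle-yak replicates 1 and 2 and yak replicates 1, 2 and 3, at adjusted p = 0.0509 to 0.0664, and with 2 of the other scalings.

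Complex IV reduces oxygen, and several of its nuclear subunits exist as paralogues that differ between tissues. NDUFA4, long counted with complex I, is now assigned to complex IV and is counted here. Of 13 tested members 7 rose, 5 fell and 1 was not called, with the same counts against each parent. With median-ratio scaling 4 rose and 5 fell against cattle, and the counts against yak were 3 and 6. All genes tested stood at 54.4% higher and 30% lower against cattle as deposited, and 39.4% and 40.5% with that scaling. Against yak they stood at 55.3% and 30.7%, and 40.4% and 42%. The widest fall and the widest rise of any member against cattle were both in complex IV.

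COX6B2 (ENSBTAG00000007200), the testis form of subunit 6B, was at 72.3, 90.02 and 80.4 FPKM in cattle, 15.8, 15.4 and 5.53 in cattle-yak and 79.6, 95.4 and 60.7 in yak. All cattle-yak libraries lay below the parents, and replicate 3 was lowest. The log2 fold change was −2.74 ± 0.32 compared with cattle (limma, adjusted p = 1.84e-05) and −2.68 ± 0.32 with yak (adjusted p = 1.86e-05). Its somatic counterpart COX6B1 is not analysed here, so no share of the pair can be given.

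Subunit 7A has 3 paralogues. COX7A2 (ENSBTAG00000005096), the form of most tissues, was at 447, 535 and 431 FPKM in cattle, 217, 199.6 and 200.4 in cattle-yak and 744, 681 and 693 in yak. The groups did not overlap, with cattle-yak lowest, and the log2 fold changes were −1.19 ± 0.12 (limma, adjusted p = 7.04e-06) and −1.77 ± 0.12 (adjusted p = 4.63e-07). COX7A2L (ENSBTAG00000000705), which joins complexes III and IV into supercomplexes, was at 48.8, 47.7 and 44.5 FPKM in cattle, 94.7, 99.7 and 101 in cattle-yak and 53.8, 57.7 and 58.2 in yak. It was highest in cattle-yak, by 1.05 ± 0.087 compared with cattle (limma, adjusted p = 1.97e-06) and 0.79 ± 0.087 with yak (adjusted p = 1.05e-05), though not called against yak with median-ratio scaling (adjusted p = 0.113). COX7A1 (ENSBTAG00000014878), the heart and muscle form, was at 15.2, 10.7 and 10.7 FPKM in cattle, 16.5, 31.2 and 41.4 in cattle-yak and 11.99, 17.5 and 18.8 in yak. Cattle-yak replicate 1 lay among the yak libraries and replicates 2 and 3 above both parents. The log2 fold changes were 1.15 ± 0.30 (limma, adjusted p = 0.00409) and 0.78 ± 0.30 (adjusted p = 0.0294). Against yak the call was lost without cattle-yak replicate 2 or 3 or yak replicate 1 (without cattle-yak replicate 3 it was 0.50, adjusted p = 0.113). With median-ratio scaling neither comparison of COX7A1 was called, and with quantile normalisation the one against yak was not (adjusted p = 0.067 with limma).

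Within the 7A family the share of COX7A2 was 87.5, 90.2 and 88.7% of summed FPKM in the cattle libraries, 66.1, 60.4 and 58.5% in cattle-yak and 91.9, 90.1 and 90.01% in yak. The share of COX7A2L was 8.91 ± 0.788%, 29.5 ± 0.670% and 7.27 ± 0.547% in that order, and that of COX7A1 2.32 ± 0.599%, 8.86 ± 3.56% and 2.08 ± 0.518%. For each of the 3 shares cattle-yak and parents did not overlap, so that the family moved from COX7A2 towards the other paralogues. The exact two-sided permutation test of cattle-yak against the 6 parent libraries gave p = 0.0238, the smallest value it can give (adjusted p = 0.119 over 40 share tests). With 3 against 3 libraries no p under 0.1 is possible, and 0 of the 40 share tests passed an adjusted p of 0.05.

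Subunit 4 has 2 paralogues. COX4I1 (ENSBTAG00000016079), the general form, was at 265, 303 and 316 FPKM in cattle, 132, 160.2 and 151 in cattle-yak and 419, 353 and 374 in yak. It was lowest in cattle-yak without overlap, with log2 fold changes of −0.99 ± 0.12 (limma, adjusted p = 2.79e-05) and −1.36 ± 0.12 (adjusted p = 2.62e-06). COX4I2 (ENSBTAG00000016171), the form known from lung and from low oxygen, was at 0.549, 1.18 and 1.94 FPKM in cattle, 3.21, 2.54 and 3.16 in cattle-yak and 0.438, 0.762 and 1.35 in yak. Levels were low throughout and highest in all 3 cattle-yak libraries, by 0.88 ± 0.24 (limma, adjusted p = 0.00579) and 1.13 ± 0.24 (adjusted p = 0.00122). The call against cattle was lost with median-ratio scaling (adjusted p = 0.0757). COX4I2 held 0.402 ± 0.203% of the pair in cattle, 1.99 ± 0.408% in cattle-yak and 0.227 ± 0.128% in yak.

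The fall of COX4I1 came from 1 of its 2 listed transcripts. ENSBTAT00000053881 was at 229.9, 254 and 287 FPKM in cattle, 60.1, 48.1 and 16.8 in cattle-yak and 384, 301 and 326 in yak. ENSBTAT00000021397 was at 35.0, 49.1 and 28.5 FPKM in cattle, 72.2, 112 and 135 in cattle-yak and 34.9, 52.3 and 48.6 in yak. The first was low and the second high in every cattle-yak library. In a fit over the 14721 transcripts tested, of which 83.1% were called against cattle and 85% against yak, the first changed by −2.77 ± 0.38 and −3.16 ± 0.38 (limma, adjusted p = 7.37e-05 and 2.7e-05). The second changed by 1.46 ± 0.26 and 1.19 ± 0.26 (adjusted p = 0.000481 and 0.00178). The first held 86.8, 83.8 and 91.0% of the gene in cattle, 45.4, 30.0 and 11.1% in cattle-yak and 91.7, 85.2 and 87.0% in yak. This fit was added after the values were seen, and how reads shared by both transcripts were divided was not given in the sources used here.

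ATP5PF and NDUFV3 also had 2 listed transcripts that moved apart. For ATP5PF, a stalk subunit of complex V, the gene as a whole was not called as deposited. With median-ratio scaling it was lower against both parents, at −0.43 and −0.79 (limma, adjusted p = 0.00754 and 0.000154), and with quantile normalisation it was higher against cattle, at 0.41 (adjusted p = 0.00649). Of its transcripts, ENSBTAT00000032427 rose to 101 ± 17.2 FPKM from 67.3 ± 4.56 in cattle and 68.7 ± 7.75 in yak (limma, adjusted p = 0.00297 and 0.00372). ENSBTAT00000066011 fell against yak, at −0.69 ± 0.13 (adjusted p = 0.000629) and was not called against cattle (adjusted p = 0.0864). For NDUFV3, a subunit of complex I known to exist in a short and a long form, ENSBTAT00000028645 changed by −0.53 ± 0.14 and −0.51 ± 0.14 (limma, adjusted p = 0.00515 and 0.00657). ENSBTAT00000043714 rose against yak by 0.70 ± 0.15 (adjusted p = 0.0015) and was not called against cattle (adjusted p = 0.666). Transcripts were fitted only as deposited. The rises of ENSBTAT00000032427, 0.57 against cattle and 0.55 against yak, are near the shift of a typical gene with median-ratio scaling, −0.48 and −0.54. That scaling moved NDUFV3 as a whole from −0.32 to −0.87 against cattle and from −0.13 to −0.75 against yak.

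**Figure D3:**
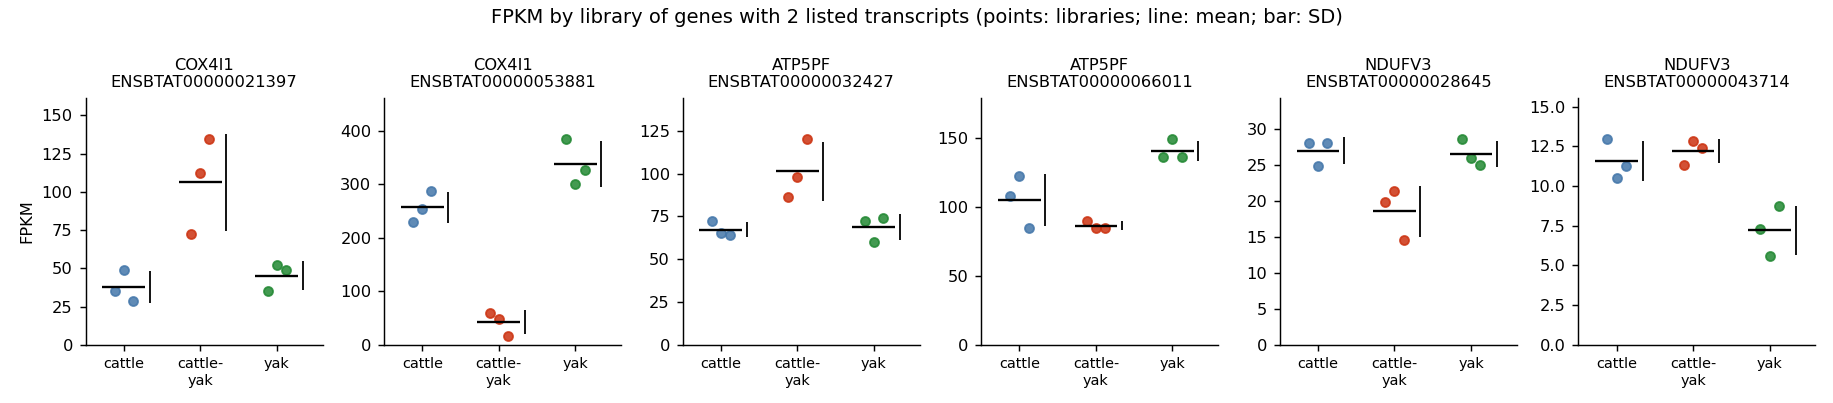
FPKM (y axes, each from 0) of the 2 listed transcripts of COX4I1, ATP5PF and NDUFV3 in the 9 libraries by group (x axes), with points for libraries, a line for the mean and a bar for the SD. For COX4I1 the transcript that held most of the gene in the parents was at 16.8 to 60.1 FPKM in cattle-yak, while the other was at 72.2 to 135.

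NDUFA4 (ENSBTAG00000011145) was at 71.1, 75.0 and 50.9 FPKM in cattle, 230.2, 246 and 311 in cattle-yak and 55.1, 89.1 and 87.8 in yak. Each cattle-yak library lay above 200 FPKM and each parent library below 100, and the log2 fold changes were 1.99 ± 0.21 (limma, adjusted p = 9.79e-06) and 1.77 ± 0.21 (adjusted p = 1.88e-05). Its paralogue NDUFA4L2 (ENSBTAG00000031503), known as a target of the hypoxia response, went the other way at low levels, with 1.49, 1.27 and 1.46 FPKM in cattle, 0.734, 0.684 and 0.527 in cattle-yak and 0.894, 1.298 and 2.27 in yak. The fold changes were −0.55 ± 0.18 (limma, adjusted p = 0.0161) and −0.56 ± 0.18 (adjusted p = 0.0142). Without cattle-yak replicate 3 both calls were lost (adjusted p = 0.0563 and 0.0507), and without yak replicate 3 the change against yak was −0.34 (adjusted p = 0.0445). The share of NDUFA4L2 in the pair was 2.17 ± 0.571% in cattle, 0.255 ± 0.0769% in cattle-yak and 1.85 ± 0.586% in yak.

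Other members of complex IV filled both directions. COX7B (ENSBTAG00000047768), a small subunit needed for assembly, rose to 78.8 ± 13.2 FPKM from 24.6 ± 3.38 in cattle and 25.4 ± 8.74 in yak, by 1.64 ± 0.24 and 1.64 ± 0.24. COX6A1 (ENSBTAG00000012788), the general form of subunit 6A, rose from 98.2 ± 12.8 and 111 ± 15.5 FPKM to 208 ± 37.3, but was not called against yak with median-ratio scaling (limma, adjusted p = 0.143). Its paralogue COX6A2 held at most 0.205% of the pair in any library. COX8B (ENSBTAG00000002046), the heart and muscle form of subunit 8, was near 1 FPKM in each group and not called in any comparison as deposited (−0.063 ± 0.16 against cattle; limma, adjusted p = 0.714). With median-ratio scaling it was lower against yak (−0.40; limma, adjusted p = 0.0373). COX7A2 was 6.29 to 8.47 times NDUFA4 in cattle libraries, 7.65 to 13.5 times in yak and 0.644 to 0.943 times in cattle-yak.

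**Figure D4:**
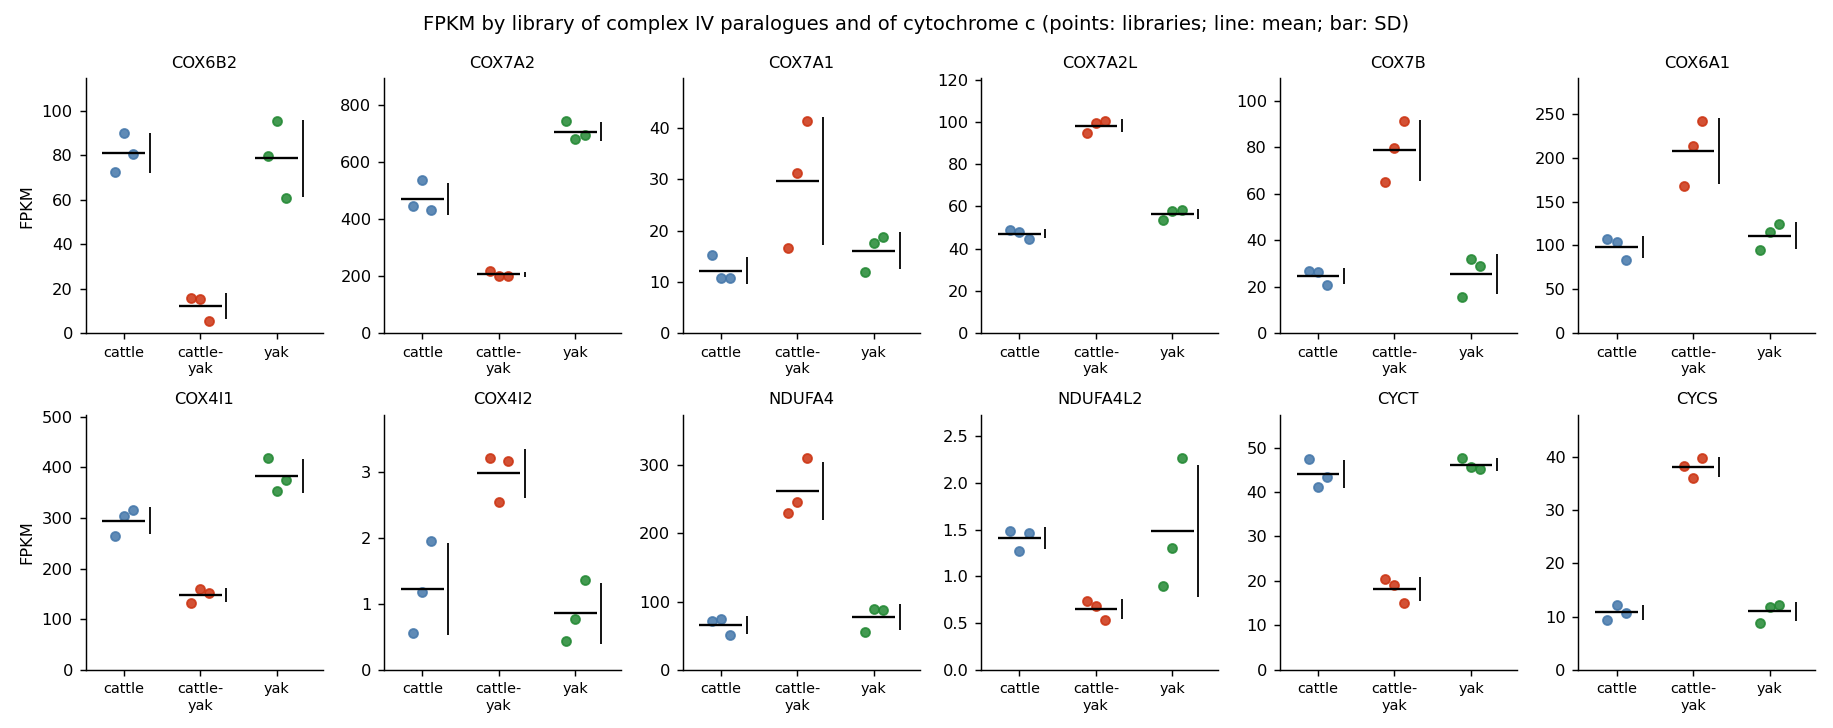
FPKM (y axes, each from 0) of 10 complex IV genes and of both cytochrome c genes in the 9 libraries by group (x axes), with points for libraries, a line for the mean and a bar for the SD. COX6B2, COX7A2, COX4I1 and CYCT stand low in cattle-yak, where COX7A2L, COX7B, NDUFA4 and CYCS stand high.

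Cytochrome c, the carrier between complexes III and IV, is not a subunit and was measured beside the members. CYCT (ENSBTAG00000039522), the testis form, was at 47.5, 41.2 and 43.3 FPKM in cattle, 20.4, 19.0 and 15.1 in cattle-yak and 47.8, 45.6 and 45.1 in yak. CYCS (ENSBTAG00000022613), the somatic form, was at 9.44, 12.2 and 10.7 FPKM in cattle, 38.4, 36.1 and 39.9 in cattle-yak and 8.84, 11.9 and 12.1 in yak. In cattle-yak CYCT was below and CYCS above every parent library. CYCT changed by −1.24 ± 0.12 and −1.31 ± 0.12 (limma, adjusted p = 4.87e-06 and 2.76e-06) and CYCS changed by 1.74 ± 0.14 and 1.72 ± 0.14 (adjusted p = 1.45e-06 and 1.25e-06). The share of CYCT in the pair was 83.4, 77.2 and 80.2% in the cattle libraries, 34.7, 34.4 and 27.4% in cattle-yak and 84.4, 79.3 and 78.8% in yak. As deposited the sum of both was 53.4 to 58.8 FPKM over all 9 libraries. Unlike the share, that sum changes with the scaling of a library, and it was not computed with median-ratio scaling.

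Complex V, the ATP synthase, couples a turning ring of c subunits in the membrane to a catalytic head. Against cattle 7 of 18 members rose, 4 fell and 7 were not called, and against yak 6 rose, 6 fell and 6 were not called. With median-ratio scaling 4 rose and 10 fell against cattle, and the counts against yak were 3 and 12. All genes tested stood at 54.4% higher and 30% lower against cattle as deposited, and 39.4% and 40.5% with that scaling. Against yak they stood at 55.3% and 30.7%, and 40.4% and 42%. The inhibitor ATP5IF1 was at 170.2 ± 23.1, 170.4 ± 22.4 and 165 ± 13.9 FPKM in cattle, cattle-yak and yak and was not called as deposited (limma, adjusted p = 0.993 and 0.789). With median-ratio scaling it changed by −0.56 against cattle and −0.59 against yak (limma, adjusted p = 0.00265 and 0.00176), and with quantile normalisation ATP5IF1 was higher against yak, at 0.40 (adjusted p = 0.0172).

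The c ring is encoded by 3 genes whose mature proteins are identical. ATP5MC3 (ENSBTAG00000002944) was at 47.5, 48.7 and 40.9 FPKM in cattle, 140.5, 147 and 169.7 in cattle-yak and 39.9, 56.3 and 54.8 in yak. Cattle-yak lay far above the parents, with log2 fold changes of 1.71 ± 0.14 (limma, adjusted p = 2.16e-06) and 1.59 ± 0.14 (adjusted p = 2.78e-06). ATP5MC2 (ENSBTAG00000005735) rose to 123 ± 22.9 FPKM from 40.1 ± 1.84 in cattle and 30.2 ± 7.39 in yak, by 1.58 ± 0.19 and 2.01 ± 0.19. ATP5MC1 (ENSBTAG00000018339) was at 38.9 ± 3.53 FPKM in cattle, 55.9 ± 3.70 in cattle-yak and 33.5 ± 3.72 in yak, a change of 0.51 ± 0.11 against cattle that turned to −0.042 with median-ratio scaling (limma, adjusted p = 0.00145 and 0.719). Against yak the change of 0.73 ± 0.11 (adjusted p = 0.000117) was not called with that scaling (adjusted p = 0.363). ATP5MC1 took 29.3, 32.8 and 31.6% of the family in the cattle libraries, 17.8, 17.9 and 15.2% in cattle-yak and 34.2, 25.2 and 29.8% in yak, and cattle-yak lay below both parents. ATP5MC3 took 36.6 ± 1.21%, 46.0 ± 1.98% and 44.0 ± 1.81% in that order, and here hybrid and yak overlapped.

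The members of complex V that fell furthest were small ones. ATP5MPL (ENSBTAG00000026886), a small proteolipid of the membrane part, was at 396, 481 and 313 FPKM in cattle, 103, 101 and 83.4 in cattle-yak and 588, 455 and 509 in yak. Every cattle-yak library lay below every parent library, and the log2 fold changes were −2.02 ± 0.17 (limma, adjusted p = 2.17e-06) and −2.42 ± 0.17 (adjusted p = 5.88e-07). ATP5F1E (ENSBTAG00000039208), the epsilon subunit of the central stalk, was at 349.9, 266 and 285 FPKM in cattle, 79.1, 195 and 204 in cattle-yak and 287, 380.2 and 279 in yak. Cattle-yak replicate 1 was far below replicates 2 and 3, which were themselves below the parents. The log2 fold change was −1.02 ± 0.31 compared with cattle (limma, adjusted p = 0.0112) and −1.08 ± 0.31 with yak (adjusted p = 0.00781). Without cattle-yak replicate 1 the changes were −0.58 (adjusted p = 0.0111) and −0.64 (adjusted p = 0.00615). ATP5MPL was 1.48 to 2.55 times ATP5F1A, the alpha subunit of the head, in cattle libraries, 2.51 to 3.43 times in yak and 0.153 to 0.233 times in cattle-yak.

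Yak and cattle testis were much closer to each other. Of the 80 tested members 17 were higher in yak, 2 lower and 61 not called, where 8.36% of all genes tested were higher and 10.7% lower, 19.1% in either direction. All 3 yak libraries lay above all 3 cattle libraries for 33 of the 81 members and below them for 4, where 16.7% of all genes tested lay above and 23.2% below. The median log2 fold change of yak against cattle was 0.18 for the members and −0.056 for all genes. Of the 17, 11 belong to complex I, 3 to complex V, 2 to complex III and 1 to complex IV. The count of 17 rested on single libraries: it was 11 without cattle replicate 1, 9 without cattle replicate 3, and 11, 10 and 8 without yak replicates 1, 2 and 3. With median-ratio scaling 24 were higher and 2 lower, where 11.4% of all genes were higher and 9.94% lower. The members took 2.31 to 2.36% of summed FPKM in yak libraries, 1.85 to 2.05% in cattle and 2.03 to 2.19% in cattle-yak. Markers of other cells differed between the parents too. In yak 3 of 7 smooth muscle and stroma markers were lower (DCN, COL1A1 and MYH11, at −1.50, −0.96 and −0.93), as were 2 of 7 macrophage markers and 1 of 7 spermatogonia markers, while VWF of endothelium (1.61) and TTN of striated muscle (0.58) were higher. None of the 8 spermatid, 8 spermatocyte, 7 Sertoli cell and 7 Leydig cell markers was called between the parents. The summed stroma markers were at 183 to 223 FPKM in cattle libraries and 73.8 to 208 in yak. The part of these shifts in the differences of the members was not tested. The only genome build the submitters named is of cattle, and the part of read mapping in differences between the species was not tested.

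NDUFB2 (ENSBTAG00000021759), of the membrane arm of complex I, was at 159.7, 205 and 207 FPKM in cattle and 466, 456 and 492 in yak, without overlap. The log2 fold change of yak against cattle was 1.31 ± 0.12 (limma, adjusted p = 8.93e-05), and cattle-yak, at 182, 184 and 163 FPKM, lay in the range of cattle as deposited and fell below cattle with median-ratio scaling, at −0.66 (adjusted p = 0.000507). With quantile normalisation and with equal summed FPKM NDUFB2 turned to 0.17 and 0.0039 against cattle, neither called (limma, adjusted p = 0.263 and 0.978). ATP5F1D (ENSBTAG00000000550), the delta subunit of the central stalk of complex V, was at 17.9, 16.0 and 14.9 FPKM in cattle and 42.0, 35.6 and 46.1 in yak, a change of 1.29 ± 0.12 (adjusted p = 8.87e-05 with limma). Here cattle-yak, at 29.9, 31.1 and 34.9 FPKM, lay between the parents. Its log2 fold change was 0.93 ± 0.12 against cattle and −0.35 ± 0.12 against yak (limma, adjusted p = 3.98e-05 and 0.0192), where the call against yak ended without cattle-yak replicate 1 or 2 or yak replicate 3 and with equal summed FPKM. With median-ratio scaling the changes of ATP5F1D were 0.39 and −0.97 (limma, adjusted p = 0.0171 and 5.12e-05). UQCRFS1 (ENSBTAG00000046786), the Rieske iron-sulfur protein of complex III, was at 61.3, 61.7 and 59.3 FPKM in cattle and 94.4, 103 and 109.9 in yak, a change of 0.74 ± 0.11 (limma, adjusted p = 0.00162). Cattle-yak, at 97.1, 109 and 127 FPKM, overlapped yak as deposited, while with median-ratio scaling it fell against yak, at −0.53 (limma, adjusted p = 0.000787), and with quantile normalisation UQCRFS1 was higher than in yak, at 0.44 (adjusted p = 0.00273). NDUFB1 (ENSBTAG00000015156), another membrane arm subunit, was at 219.6, 208 and 116 FPKM in cattle and 297, 284 and 319 in yak. Cattle replicate 3 was the low one, and the change of 0.78 ± 0.22 (limma, adjusted p = 0.0367) was 0.49 without it (adjusted p = 0.0665). That call was also lost without cattle-yak replicate 2 or any 1 yak library, and with no filter on low values (adjusted p = 0.059).

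The 2 members lower in yak were SDHA and NDUFAB1. SDHA was lower, at −0.91 ± 0.12 (limma, adjusted p = 0.000592), with the values given above, and SDHB, SDHC and SDHD had changes of −0.020 ± 0.094, −0.34 ± 0.21 and −0.13 ± 0.16 that were not called. NDUFAB1 was lower, at −0.61 ± 0.11 (limma, adjusted p = 0.00465), and no library of yak reached one of cattle.

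**Figure D5:**
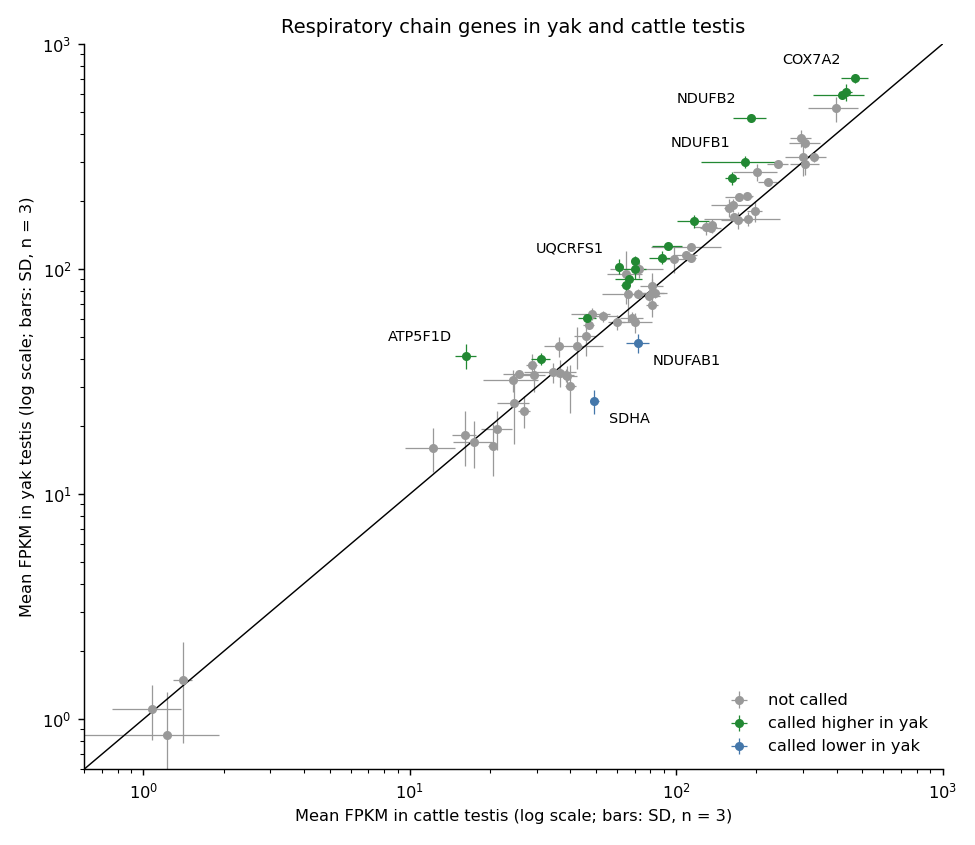
Mean FPKM in yak testis (y axis, log scale) against mean FPKM in cattle testis (x axis, log scale) for the 80 tested respiratory chain genes, with bars for the SD over 3 libraries and a line of equality. The 17 genes called higher in yak lie above the line, with NDUFB2 and ATP5F1D farthest from it, and SDHA and NDUFAB1 lie below.

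Genes around the chain were read from lists of non-members. Of 40 assembly factors measured, 29 rose and 8 fell in cattle-yak against cattle (median 0.87), and against yak 25 rose and 7 fell (median 0.84), beside medians of 0.50 and 0.54 for all genes tested and the shares of all genes given above, 54.4% and 55.3% higher and 30% and 30.7% lower. With median-ratio scaling 20 rose and 9 fell against cattle, and the counts against yak were 18 and 14. SCO1, which delivers copper to complex IV, rose to 39.8 ± 4.12 FPKM from 9.61 ± 0.534 in cattle and 7.33 ± 2.17 in yak. NDUFAF1, needed to assemble the membrane arm of complex I, rose from 9.09 ± 1.00 and 13.3 ± 2.67 FPKM to 46.8 ± 6.79. In contrast LYRM7, a chaperone of the Rieske protein, fell from 167 ± 33.8 and 172 ± 27.7 FPKM to 31.5 ± 1.18, with log2 fold changes of −2.35 ± 0.16 and −2.40 ± 0.16 (limma, adjusted p = 5.15e-07 and 4.11e-07). NDUFAF2, a late assembly factor of complex I, fell from 58.6 ± 5.38 and 111 ± 10.4 FPKM to 21.1 ± 3.34.

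The citric acid cycle and pyruvate dehydrogenase supply the chain with electrons. Against cattle 15 of its 17 genes rose and 2 fell (median 1.37), and 14 rose and 2 fell in the comparison with yak (median 1.34). With median-ratio scaling 9 rose and 2 fell against cattle, and the counts against yak were 11 and 3. In the table as a whole and as deposited, 54.4% rose and 30% fell relative to cattle, 55.3% rose and 30.7% fell relative to yak, and 39.4% and 40.4% were higher with median-ratio scaling. The 2 that fell were PDHA2 and PDHB. PDHA2, the testis form of the E1 alpha subunit of pyruvate dehydrogenase, was at 259, 235 and 268 FPKM in cattle, 12.6, 10.7 and 2.99 in cattle-yak and 317, 292 and 277 in yak. PDHA1, its somatic form, was at 4.496, 5.26 and 3.88 FPKM in cattle, 27.2, 27.1 and 29.9 in cattle-yak and 3.19, 6.02 and 7.47 in yak. For neither gene did cattle-yak overlap a parent, with log2 fold changes of −4.89 ± 0.36 and −5.11 ± 0.36 for PDHA2 and of 2.40 ± 0.23 and 2.21 ± 0.23 for PDHA1 (limma, adjusted p at most 6.01e-06 in the 4 comparisons). PDHA2 was 44.6 to 69.2 times PDHA1 in cattle libraries, 37.1 to 99.4 times in yak and 0.0999 to 0.461 times in cattle-yak. DLD, the dehydrogenase subunit shared by pyruvate and oxoglutarate dehydrogenase, rose from 27.3 ± 5.17 and 24.7 ± 6.35 FPKM to 113 ± 12.9.

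Of 18 tested genes of mitochondrial mass, import and biogenesis, 10 were higher and 5 lower against cattle and 10 were higher and 6 lower against yak. These counts were near the shares of all genes tested, where 54.4% rose and 30% fell relative to cattle and 55.3% rose and 30.7% fell relative to yak. With median-ratio scaling 9 were higher and 8 lower against each parent. HSPD1, the matrix chaperone of folding, rose to 147 ± 17.0 FPKM from 47.1 ± 3.51 in cattle and 27.1 ± 4.92 in yak. VDAC1, a pore of the outer membrane, rose from 25.4 ± 3.28 and 32.8 ± 6.94 FPKM to 113 ± 7.87, while its paralogue VDAC3 fell from 374 ± 22.7 and 445 ± 29.3 to 142 ± 9.43. TFAM, which packages mitochondrial DNA, fell from 292 ± 34.3 and 319.6 ± 40.0 FPKM to 27.3 ± 3.20, with log2 fold changes of −3.37 ± 0.14 and −3.50 ± 0.14 (limma, adjusted p = 1.08e-08 and 8.29e-09). PPARGC1A and PPARGC1B, coactivators of mitochondrial biogenesis, had group means under 1 FPKM and were not tested.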

How the data were processed

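Testis RNA of 9 animals, 3 per group, was depleted of ribosomal RNA and sequenced, per the labels, in directional libraries with read pairs of 125 nt. The submitters' processing notes name Trimmomatic, HISAT2 2.0.5, StringTie 1.3.4, Cufflinks, Bowtie and the cattle build UMD3.1, with no role for each. The FPKM values of 22118 transcripts were deposited by the authors, and which tool made them was not given in the sources used here. FPKM was summed per gene identifier, and log2(FPKM + 1) was fitted with limma 3.58.1 (R 4.3.3) with a term for group and a trended empirical Bayes spread. Genes with at least 1 FPKM in at least 3 libraries were tested, two-sided p was adjusted over all 14091 by the Benjamini-Hochberg method, and the call was an adjusted p under 0.05. The fit was tested on simulated data.

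Counts could not be recovered from the values, so no count test was run. At most 2.04% of low values shared the most frequent ratio between libraries. That check cannot tell whether values are whole multiples of a read, because ratios of whole read numbers scatter too. Shares of paralogues within a library were tested with exact permutation tests, two-sided (scipy 1.17.1), adjusted over 40 tests. Genes named are the paralogue families, complex II, the 2 highest and 2 lowest members of each complex and the members most changed between yak and cattle, with at least 5 FPKM in a group where ranked within a complex, and of the lists of other genes the 2 highest and 2 lowest. UQCRC1, ATP5IF1, ATP5F1A, ATP5PF, NDUFV3, NDUFA13, NDUFS5 and ATP5PD fall outside that rule and were chosen after their values were seen. The 8 spermatocyte markers are all named where their sum is given. Members and lists were chosen with earlier results of these data known. The groups were told apart by sample title, and numbers in the titles are not stated to pair animals. Circular RNAs carry only running numbers and no host gene in their table, so those of the members were not analysed, and miRNA data are not used here. No RefSeq sequence was at hand, so none is shown. The alternatives were other pseudocounts, filters, scalings, transcript choices, a replicate block, fits of 2 groups and leaving out each library.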

Additional observations from a re-analysis of the deposited data

How the results depend on the processing

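With median-ratio scaling 21 members were higher and 43 lower against cattle (median −0.33), and 15 and 49 against yak (median −0.63). Medians were 0.45 and 0.20 with quantile normalisation and 0.32 and 0.11 with equal summed FPKM. Median-ratio scaling turned the direction of 19 of the 80 members against cattle, 15 against yak and 9 in yak against cattle, quantile normalisation that of 8, 9 and 4, and equal summed FPKM that of 3, 4 and 1. Among the genes named, these included ATP5MC1 (−0.042), NDUFAB1 (−0.26), UQCRQ against yak (−0.15) and UQCRFS1 against yak (−0.53) with median-ratio scaling. With quantile normalisation they included NDUFB1 (0.050) and NDUFB2 (0.17) against cattle and SDHB against yak (0.015), and with equal summed FPKM NDUFB2 against cattle (0.0039). COX8B, not called as deposited, ranged from −0.15 to 0.058 against cattle and from −0.18 to 0.020 against yak when 1 library was left out. The second COX4I1 transcript alone gave 1.46 against cattle and 1.19 against yak. For scalings the cause was not tested.

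Leaving out 1 library at a time, the members higher ranged from 34 to 38 against cattle, from 27 to 30 against yak and from 8 to 18 in yak against cattle. Small share differences of yak against cattle, in percentage points, changed sign: COX7A1 ranged from −0.510 to 0.0787, CYCT from −1.19 to 2.16 and ATP5MC1 from −3.71 to 0.783. COX6A2 in cattle-yak against yak ranged from −0.0218 to 0. The replicate numbers are not stated to pair animals. Correlations were −0.17 to 0.23 for same-numbered libraries of 2 groups and −0.35 to 0.23 for the others. With 3 libraries a group these values cannot show whether libraries were paired. With the replicate block 37 members were higher and 23 lower against cattle, 29 and 32 against yak, and 14 and 2 in yak against cattle, where NDUFB1 lost its call (limma, adjusted p = 0.0645). Alternatives for circular RNAs (DESeq2, no filter, a block, each library left out) were not run. Read depth being unknown, the precision of genes near 1 FPKM, such as COX4I2, NDUFA4L2 and COX8B, rests on the spread between 3 libraries.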
